A study of Mus musculus with 12 samples.

Results

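Klk1b22, Ces1a, Itprid1, Sox30, Tgm3, Pttg1, Trim12a and Zfp429 are 8 protein-coding genes chosen by their read counts, which were at or near 0 in every retina library of one of the 2 mouse strains of the series and well above 0 in the other. They are 8 of 56748 genes in the deposited table, of which 31728 had at least 1 count and 18334 were tested, all 8 among them. Since the strain difference chose these genes, it is described and not tested, and all 8 passed the filter on low counts through the strain in which they are high. Counts of 5 of them were high in JR5558 (Klk1b22, Ces1a, Itprid1, Sox30 and Tgm3) and counts of 3 were high in C57BL/6J (Pttg1, Trim12a and Zfp429).

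The libraries were poly-A RNA from 12 whole retinas, each from a different mouse, and the labels name no treatment. JR5558 is an inbred line that develops new vessels under the retina without intervention and is homozygous for rd8, a mutation of Crb1, with a Jak3 allele besides, and C57BL/6J is the wild-type strain it was set against. The 4 groups of 3 mice were JR5558 at 8 weeks of age, C57BL/6J at 8 weeks, JR5558 at 4 weeks and C57BL/6J at 4 weeks. The labels give no sex and mark no batch.

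Each inbred strain carries its own fixed alleles, so a gene may be transcribed in every animal of one strain and in none of another. Kallikrein, carboxylesterase, TRIM and KRAB zinc finger genes stand in tandem arrays of close relatives, and such arrays differ between mouse strains in sequence and in the number of copies. Of the 8 genes, Klk1b22, Ces1a, Trim12a and Zfp429 belong to arrays of this kind. In whole retina, fewer cells of a type and less RNA per cell cannot be told apart.

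Library totals ran between 18029611 and 23739886 counts. All 13 retina markers on the list passed the filter on low counts; at 8 weeks 1 was higher and 4 were lower in JR5558, with sums of 49535 to 51343 CPM (counts scaled to library size) in JR5558 and 55654 to 57690 CPM in C57BL/6J, and at 4 weeks 2 were higher and 2 lower, with sums of 47845 to 53975 CPM in JR5558 and 48453 to 52456 CPM in C57BL/6J. Xist, which silences an X chromosome in female cells, had 7772 to 12398 counts in JR5558 at 8 weeks and 0 to 5 counts in JR5558 at 4 weeks, while the Y-linked gene Ddx3y had 0 counts at 8 weeks and 1323 to 1846 at 4 weeks. In C57BL/6J, Xist had 8928 to 15577 counts at 8 weeks and 16416 to 22988 at 4 weeks, and Ddx3y had 0 counts at both ages. Strain comparisons at 4 weeks thus set JR5558 mice with Y-linked counts against C57BL/6J mice without them. Sex and age therefore cannot be told apart within JR5558, nor sex and strain at 4 weeks. Markers of the pigment epithelium were higher in JR5558 for 3 of 14 tested genes at 8 weeks and for 10 of 14 at 4 weeks. Their summed level was 526 to 706 CPM in JR5558 and 246 to 379 CPM in C57BL/6J at 8 weeks, and 458 to 638 CPM in JR5558 and 179 to 325 CPM in C57BL/6J at 4 weeks, with no defining marker at 0. The part of either marker list in the results below was not tested.

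The label of a gene found in 1 strain held without exception for 4 of the 8. Klk1b22, Ces1a and Itprid1 had 0 counts in all 6 C57BL/6J libraries, and Trim12a had 0 counts in all 6 JR5558 libraries. Sox30, Tgm3 and Pttg1 had some reads in every library of the strain in which they are low, and Zfp429 had reads in 4 of 6 such libraries, so for these 4 genes the data show a low level rather than no reads. With a pattern defined as at most 10 counts summed over the 6 libraries of one strain and at least 10 counts in each library of the other, the whole table held 31 genes, 17 of them present in JR5558 (0.0536%) and 14 in C57BL/6J (0.0441%). That is 0.0977% of the 31728 genes with counts, and 8 of the 31 were protein-coding. The 4 genes that lie outside this limit had sums of 21 (Zfp429), 64 (Pttg1), 90 (Tgm3) and 108 counts (Sox30) in the low strain.

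**Figure D1:**
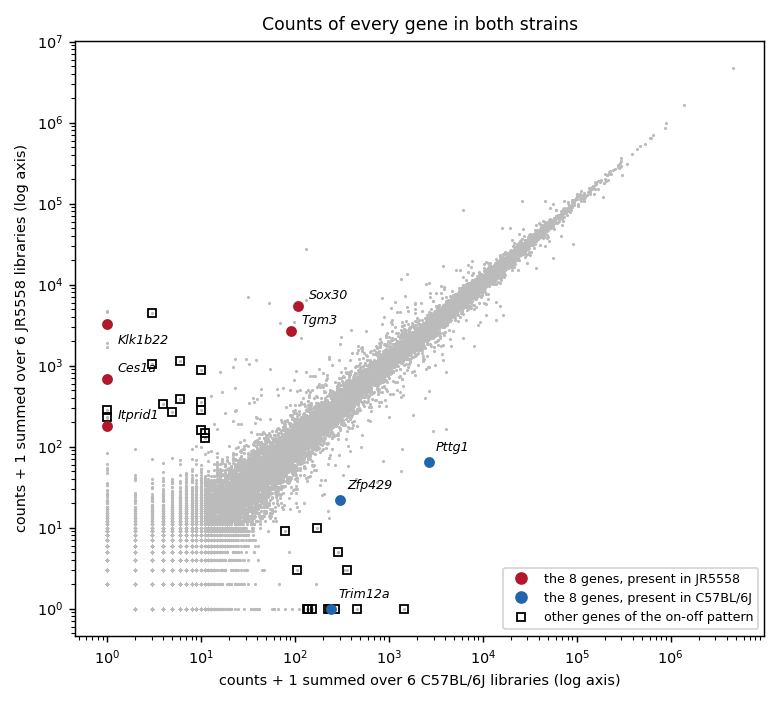
Counts plus 1 of every gene, summed over 6 JR5558 libraries (vertical, log axis) and 6 C57BL/6J libraries (horizontal, log axis). Red points are the 5 genes present in JR5558, blue points the 3 present in C57BL/6J, and open squares the other 27 genes of the on-off pattern; grey points near the vertical axis include Y-linked genes seen in JR5558 at 4 weeks alone.

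Annotated promoters were read because the genes are off, or nearly so, in one strain, which holds for all 8. The RefSeq sequence is that of C57BL/6J, the strain in which Klk1b22, Ces1a, Itprid1, Sox30 and Tgm3 are the low ones. Promoters of 5 of the 8 genes are shown, without those of Ces1a, Itprid1 and Zfp429. Each runs 5′ to 3′ along the gene's strand, with 250 bases before and 50 after the annotated start in build GRCm38.p6, and all 8 genes had an entry. They lie at chr7:44112423-44112722 (Klk1b22, plus strand), chr11:45980060-45980359 (Sox30, plus strand), chr2:130012090-130012389 (Tgm3, plus strand), chr11:43425932-43426231 (Pttg1, minus strand) and chr7:104315446-104315745 (Trim12a, minus strand). Capitals mark matches on either strand to 3 promoter motifs. The first was TATAAA, the core of a TATA element. The second was CCAAT, a motif bound by factor NF-Y. The third was GGGCGG, a motif bound by Sp1, and in these windows no match overlapped one of another motif.
Klk1b22: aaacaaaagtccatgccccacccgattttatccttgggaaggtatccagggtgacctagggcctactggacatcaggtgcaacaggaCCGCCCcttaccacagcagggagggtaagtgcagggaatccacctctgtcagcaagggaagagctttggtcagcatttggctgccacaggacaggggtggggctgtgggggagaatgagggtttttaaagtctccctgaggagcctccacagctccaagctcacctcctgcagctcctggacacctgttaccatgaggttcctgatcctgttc
Sox30: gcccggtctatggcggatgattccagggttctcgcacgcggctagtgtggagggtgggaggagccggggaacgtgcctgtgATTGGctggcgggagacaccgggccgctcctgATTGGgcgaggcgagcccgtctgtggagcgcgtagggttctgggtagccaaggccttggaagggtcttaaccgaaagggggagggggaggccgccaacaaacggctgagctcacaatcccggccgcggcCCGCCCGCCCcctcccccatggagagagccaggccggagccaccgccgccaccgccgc
Tgm3: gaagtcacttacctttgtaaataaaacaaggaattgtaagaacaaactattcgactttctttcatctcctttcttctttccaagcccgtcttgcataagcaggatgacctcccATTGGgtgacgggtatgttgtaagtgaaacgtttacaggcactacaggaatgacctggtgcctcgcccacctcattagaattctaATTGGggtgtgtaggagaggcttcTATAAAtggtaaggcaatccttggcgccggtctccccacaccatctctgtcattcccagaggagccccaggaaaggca
Pttg1: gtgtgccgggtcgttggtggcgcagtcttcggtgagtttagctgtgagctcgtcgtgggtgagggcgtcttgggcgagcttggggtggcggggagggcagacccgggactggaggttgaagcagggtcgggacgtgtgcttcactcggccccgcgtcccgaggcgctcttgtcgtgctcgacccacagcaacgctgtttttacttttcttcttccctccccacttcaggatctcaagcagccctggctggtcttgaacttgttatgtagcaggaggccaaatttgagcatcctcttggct
Trim12a: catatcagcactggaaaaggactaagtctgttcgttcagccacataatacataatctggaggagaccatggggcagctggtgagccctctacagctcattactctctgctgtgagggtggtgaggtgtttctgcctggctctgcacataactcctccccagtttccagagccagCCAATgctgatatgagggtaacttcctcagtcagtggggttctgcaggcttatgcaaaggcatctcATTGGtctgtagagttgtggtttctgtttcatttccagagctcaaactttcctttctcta
Sox30 and Pttg1 had CpG-rich starts, with 28 and 20 CpG dinucleotides in the window, more than in 85.8% and 73.5% of 32851 annotated promoters, whose median was 7. Klk1b22 and Trim12a had 2 and 1, and Tgm3 had 7. Of the 8 genes, Tgm3 was the one with a TATAAA match, which began 28 bases before the start; 13.6% of all promoters hold one. CCAAT was present in Ces1a, Sox30, Tgm3 and Trim12a and in 37.4% of all promoters, and GGGCGG in Klk1b22, Sox30 and Zfp429 and in 35.7%. These are matches of letters in the C57BL/6J sequence; JR5558 sequence was not used here.

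Klk1b22 encodes a kallikrein 1-related serine protease known from mouse salivary gland as a protein that binds epidermal growth factor (ENSMUSG00000060177, chromosome 7, 43762097 to 43766346 in the deposited table). It had 554, 689 and 606 counts in JR5558 at 8 weeks and 595, 339 and 497 at 4 weeks, against 0 counts in all C57BL/6J libraries. Replicate 2 of the younger JR5558 mice was the lowest of the 6 JR5558 libraries. Against a floor of 3 counts over a group of 3 libraries, it was at least 559-fold higher in JR5558 at 8 weeks and at least 434-fold higher at 4 weeks.

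Ces1a encodes a carboxylesterase, an enzyme that hydrolyses esters of lipids and drugs (ENSMUSG00000071047, chromosome 8, 93746842 to 93774820). JR5558 libraries held 110, 114 and 102 counts at 8 weeks and 156, 111 and 93 at 4 weeks, and C57BL/6J libraries held 0. It was at least 98.6-fold higher in JR5558 at 8 weeks and at least 109-fold higher at 4 weeks. Gm45463, a long noncoding RNA gene annotated on the opposite strand across Ces1a, had the same direction, with 151, 154 and 133 counts in JR5558 at 8 weeks and 247, 111 and 93 at 4 weeks, against 6, 0 and 0 counts in C57BL/6J at 8 weeks and 3, 0 and 0 at 4 weeks. The labels do not say whether counting used strand, and the transcripts of the 2 genes share 9.92% of the 100-base words of Ces1a, so reads from that stretch cannot be assigned to one of them. Most of the Ces1a words were not shared with Gm45463.

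Tgm3 encodes a transglutaminase that crosslinks structural proteins in epidermis and hair follicle (ENSMUSG00000027401, chromosome 2, 129854269 to 129892319). Its counts were 349, 390 and 353 in JR5558 at 8 weeks and 519, 517 and 547 at 4 weeks, against 13, 10 and 13 in C57BL/6J at 8 weeks and 12, 13 and 29 at 4 weeks. C57BL/6J libraries held a low level rather than none. The ratio of the strains was 27.5 at 8 weeks (95% counting interval 19.8 to 39.5) and 26.7 at 4 weeks (20.4 to 35.7). Markers of corneal and epidermal epithelium summed to 6.70 to 8.33 CPM in JR5558 and 6.96 to 12.1 CPM in C57BL/6J at 8 weeks, and to 4.95 to 6.10 CPM in JR5558 and 3.81 to 9.07 CPM in C57BL/6J at 4 weeks. None of the 3 tested markers of that list passed, and involucrin (Ivl) and Sprr1a were at 0 counts in all libraries.

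Sox30 encodes an HMG-box transcription factor known for its part in sperm cell development in the mouse testis (ENSMUSG00000040489, chromosome 11, 45871137 to 45908821). Its counts were 799, 993 and 798 in JR5558 at 8 weeks and 1371, 738 and 742 at 4 weeks, against 29, 17 and 16 in C57BL/6J at 8 weeks and 13, 19 and 14 at 4 weeks. Replicate 1 of the younger JR5558 mice stood above the other 5 JR5558 libraries. It was 37.9-fold higher in JR5558 at 8 weeks (95% counting interval 29.5 to 49.6) and 56.4-fold higher at 4 weeks (42.2 to 77.3). Germ cell markers summed to 46.0 to 47.8 CPM in JR5558 and 39.4 to 45.2 CPM in C57BL/6J at 8 weeks, and to 43.6 to 50.5 CPM in JR5558 and 38.1 to 48.3 CPM in C57BL/6J at 4 weeks. None of the 3 tested ones passed at either age, and Stra8 and Spata16 were at 0 counts throughout.

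Itprid1 is named for a domain that binds receptors of inositol trisphosphate, the calcium channels of the endoplasmic reticulum (ENSMUSG00000037973, chromosome 6, 55813880 to 55955720). It was sparse even where present, with 33, 16 and 38 counts in JR5558 at 8 weeks and 27, 40 and 23 at 4 weeks, against 0 in C57BL/6J. It was at least 26.3-fold higher in JR5558 at 8 weeks and at least 27.3-fold higher at 4 weeks.

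Pttg1 encodes securin, which holds the protease separase inactive until sister chromatids part in anaphase (ENSMUSG00000020415, chromosome 11, 43311077 to 43317078). It had reads in every library of both strains, with 6, 20 and 22 counts in JR5558 at 8 weeks and 4, 8 and 4 at 4 weeks, against 467, 459 and 508 in C57BL/6J at 8 weeks and 403, 419 and 420 at 4 weeks. It was 32.9-fold lower in JR5558 at 8 weeks (95% counting interval 24.7 to 44.8) and 85.2-fold lower at 4 weeks (52.3 to 150).

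Trim12a belongs to the mouse relatives of TRIM5, a family of proteins that restrict retroviruses (ENSMUSG00000066258, chromosome 7, 103949101 to 103964673). It had 0 counts in JR5558, against 43, 44 and 44 in C57BL/6J at 8 weeks and 29, 49 and 34 at 4 weeks. JR5558 was at least 48.1-fold lower at 8 weeks and at least 41.0-fold lower at 4 weeks.

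Zfp429, also named Rsl2, encodes a KRAB zinc finger protein, and such proteins repress transcription through Trim28 (ENSMUSG00000078994, chromosome 13, 67536024 to 67547938). It had 9, 5 and 5 counts in JR5558 at 8 weeks and 0, 2 and 0 at 4 weeks, against 70, 52 and 35 in C57BL/6J at 8 weeks and 35, 59 and 52 at 4 weeks. JR5558 was 9.10-fold lower at 8 weeks (95% counting interval 5.64 to 15.5) and 80.2-fold lower at 4 weeks (21.8 to 668).

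**Figure D2:**
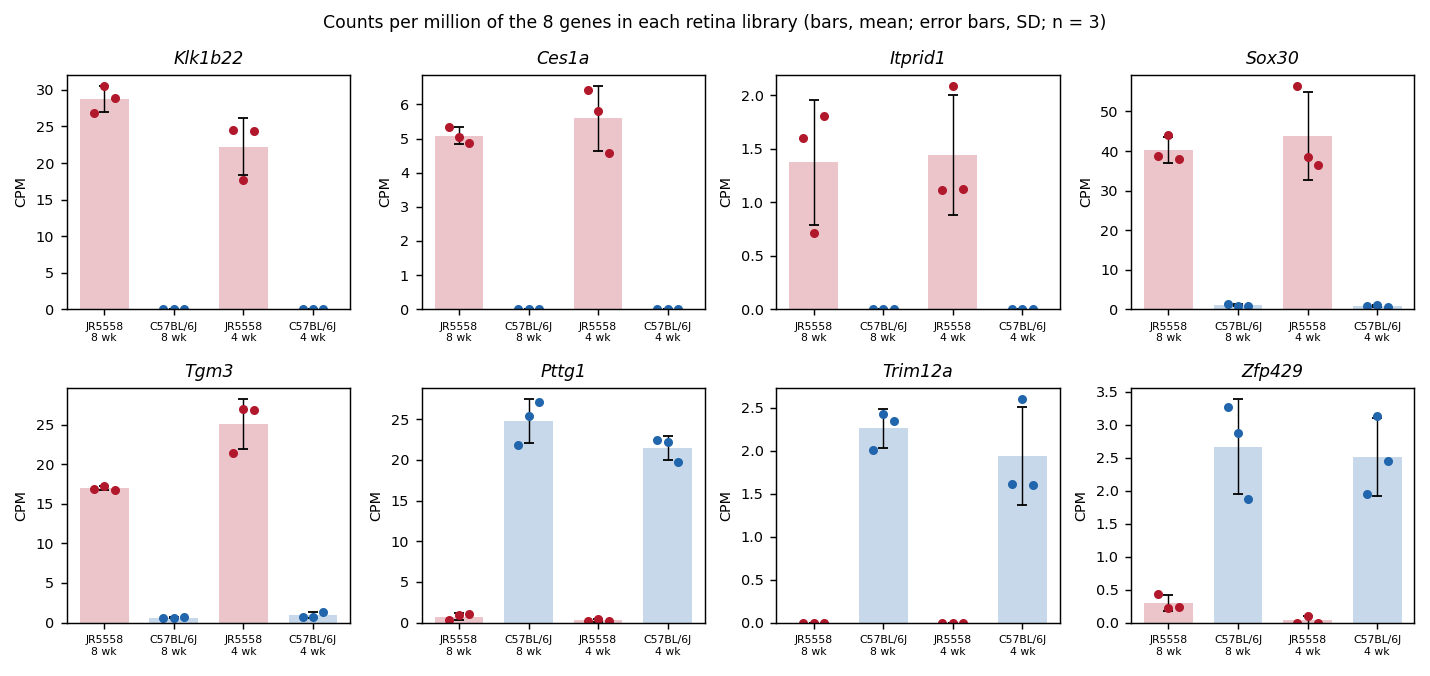
CPM of the 8 genes in each library, with bars for the mean and error bars for the SD of 3 mice; each panel has its own vertical axis starting at 0, and within each age JR5558 stands left of C57BL/6J. The genes were chosen for the gap between the strains, so its presence in every panel is not a result. The low strain is at 0 for Klk1b22, Ces1a, Itprid1 and Trim12a.

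Levels of different genes were compared per gene length, on the deposited FPKM scale, which divides fragments by gene length and library size, over the 6 libraries of the strain in which each gene is present. Klk1b22 was highest at 29.6 ± 5.24 FPKM (SD, n = 6), above the mean FPKM of 91.3% of the tested genes in JR5558. Sox30 followed at 13.9 ± 2.49 FPKM and Pttg1 at 11.5 ± 1.33 FPKM, and the ranges of these neighbours in the order overlapped (12.0 to 18.7 and 9.89 to 13.5 FPKM). Tgm3 stood at 5.05 ± 1.16 FPKM and Ces1a at 2.36 ± 0.300 FPKM. Zfp429 was at 1.11 ± 0.253 FPKM, and Itprid1 (0.390 ± 0.142 FPKM) and Trim12a (0.361 ± 0.0731 FPKM) were lowest, with overlapping ranges, above 12.3% and 11.5% of the tested genes. The 8 genes thus run between the weakly and the strongly expressed genes of this tissue.

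Spread over the libraries also differed among the genes. The coefficient of variation of CPM over the 6 libraries of the expressing strain, both ages together, was 11.6% for Pttg1, 12.8% for Ces1a, 17.7% for Klk1b22, 17.9% for Sox30, 20.4% for Trim12a, 23.1% for Tgm3, 23.1% for Zfp429 and 36.4% for Itprid1. Counting error alone gives 3.32% for Sox30, the deepest of the 8, and 18.4% for Itprid1, the shallowest. For Trim12a it gives 15.7% and for Zfp429 14.1%. With the ages pooled, a gap between them counts as spread. Tgm3, for example, had 17.0 ± 0.244 CPM in JR5558 at 8 weeks and 25.1 ± 3.19 CPM at 4 weeks. Sequence shared with other genes was another limit on these counts. Transcripts of Itprid1, Sox30, Tgm3 and Pttg1 shared no 50-base word with another annotated gene, Klk1b22 shared 13.3% of its words (5.21% with Klk1b16, the most for 1 gene), Trim12a 10.5% (5.04% with Trim5) and Zfp429 25% (18.4% with Rsl1). At 100 bases the shares were 0% for Klk1b22, 3.29% for Trim12a and 5.83% for Zfp429.

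**Figure D3:**
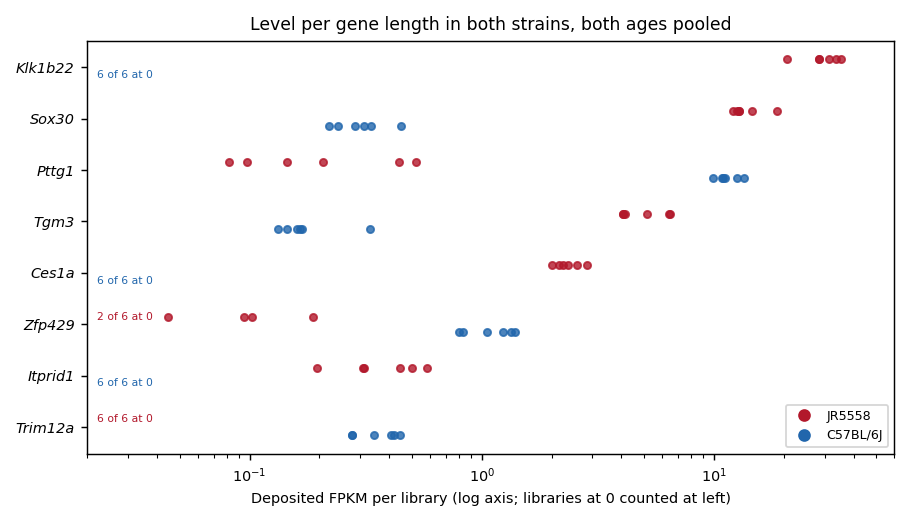
Deposited FPKM of each gene per library on a log axis, both ages together, with JR5558 in red above C57BL/6J in blue; libraries at 0 are counted at the left. The order runs between Klk1b22 at 29.6 FPKM and Trim12a at 0.361 FPKM in the strain that expresses them.

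Age was not used to choose the genes, so the 8-week and 4-week mice of the expressing strain could be compared by a test. None of the 5 genes present in JR5558 passed edgeR's quasi-likelihood test at an adjusted p under 0.05, where 1.51% of all tested genes did (0.676% higher at 8 weeks and 0.835% lower); 2 of the 5 had an unadjusted p under 0.05, as did 3093 of the 18334 tested genes, and DESeq2 called 1 of the 5 and 705 genes in all. None of the 3 genes present in C57BL/6J passed, where 0.431% of all tested genes did (0.202% higher and 0.229% lower); 0 of the 3 had an unadjusted p under 0.05, as did 2642 of all tested genes, and DESeq2 called 0 of the 3 and 410 genes in all. Transglutaminase Tgm3 had the clearest difference, with 17.0 ± 0.244 CPM in JR5558 at 8 weeks and 25.1 ± 3.19 CPM at 4 weeks (SD, n = 3 each). The ages did not overlap, and the log2 fold change was -0.56 ± 0.15 (SE; edgeR adjusted p = 0.0735). This passed with DESeq2 (adjusted p = 0.0236), without a filter on low counts (0.0301) and with only these 2 groups in the fit (0.0213), and adjusted p reached 0.311 when a library was left out. Klk1b22 had 28.8 ± 1.82 CPM at 8 weeks and 22.2 ± 3.90 CPM at 4 weeks, again without overlap (log2 fold change 0.37 ± 0.15, edgeR adjusted p = 0.212; adjusted p over the alternatives 0.113 to 0.500).

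The other 3 genes of JR5558 had log2 fold changes of -0.14 ± 0.25 (Ces1a), -0.12 ± 0.15 (Sox30) and -0.07 ± 0.51 (Itprid1), and those of C57BL/6J 0.21 ± 0.18 (Pttg1), 0.22 ± 0.41 (Trim12a) and 0.09 ± 0.40 (Zfp429), with edgeR adjusted p between 0.630 and 0.963. Beside these values in JR5558, the younger mice were the ones with Y-linked counts, and summed blood and lymphocyte markers were 20.2 to 22.2 CPM at 8 weeks and 43.6 to 59.2 CPM at 4 weeks, with Cd3e at 0 throughout. Whether these had a part in the values was not tested.

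**Figure D4:**
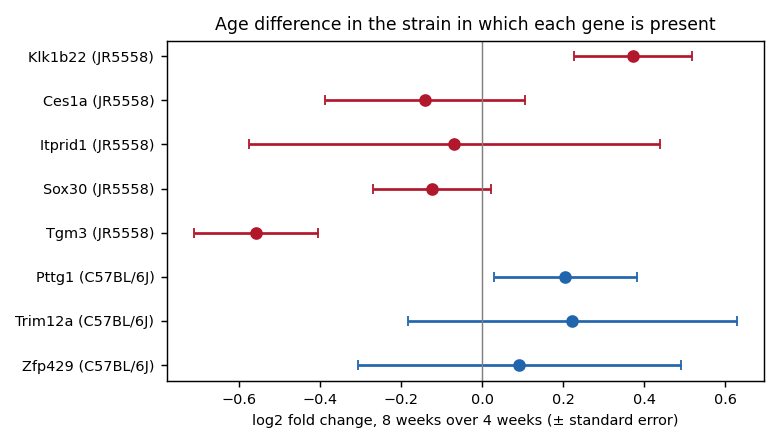
Log2 fold change of 8 weeks over 4 weeks with its standard error, for each gene in the strain in which it is present (red, JR5558; blue, C57BL/6J). Tgm3 at -0.56 and Klk1b22 at 0.37 lie farthest below and above 0, and none passed the threshold.

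In the strain where they are low, 4 of the genes kept a few reads, whose levels by age are given as values with no test, since near-0 counts there chose the genes. In JR5558, Pttg1 averaged 0.742 CPM at 8 weeks and 0.260 CPM at 4 weeks, and Zfp429 0.299 CPM at 8 weeks and 0.0348 CPM at 4 weeks. In C57BL/6J, Sox30 averaged 1.05 CPM at 8 weeks and 0.797 CPM at 4 weeks, and Tgm3 0.618 CPM at 8 weeks and 0.907 CPM at 4 weeks. Libraries of both ages overlapped for Pttg1, Sox30 and Tgm3, and Zfp429 had at most 9 counts in any JR5558 library. The directions are therefore not read as a result, and in JR5558 age and sex cannot be told apart.

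Relatives of each gene were read from lists of its family or pathway, with the gene itself left out. Between strains, 7 of 88 tested relatives passed at 8 weeks (2 higher and 5 lower in JR5558; 7.95%, against 5.18% of all tested genes, 2.54% higher and 2.63% lower), and 10 passed at 4 weeks (2 higher and 8 lower; 11.4%, against 6.16%, 3.27% higher and 2.9% lower). The list of KRAB zinc finger genes, 24 of them tested, held 2 of the 7 calls at 8 weeks and 6 of the 10 at 4 weeks. Some relatives, Trim5, Trim34a and Zfp874a among them, are also counted as neighbours below, so the counts of relatives and neighbours are not separate. The median log2 fold change of the relatives was -0.06 at 8 weeks and -0.03 at 4 weeks, and that of all tested genes -0.0007 and -0.0011. At 4 weeks the count was 6 without JR5558 replicate 2 or 3 and 5 with only the compared groups fitted, and at 8 weeks it was 3 or 4 without JR5558 replicate 1, 2 or 3 or C57BL/6J replicate 1 or 2 and 12 with only the compared groups.

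Most relatives of Klk1b22 and Ces1a were hardly detected. Any count was seen for 9 of 26 other kallikreins, and Klkb1, the plasma kallikrein, was the 1 tested and did not pass. Klk1b27 had 39 counts over all JR5558 libraries and 6 over all C57BL/6J libraries, and Klk1b24 had 23 in JR5558 and 4 in C57BL/6J, both under the filter. Reads of both were uneven over the JR5558 libraries at 4 weeks, with 0.410 ± 0.482 CPM for Klk1b27 and 0.303 ± 0.422 CPM for Klk1b24 (SD). Of 18 other carboxylesterases 9 had any count, and the 1 tested, Ces1d, had 140 counts in JR5558 and 129 in C57BL/6J (log2 fold change 0.07 at 8 weeks and -0.21 at 4 weeks, neither passing). Of the transglutaminases, 0 of 5 tested passed by edgeR at either age. Tgm2, the widely expressed tissue transglutaminase, had log2 fold changes of -0.03 at 8 weeks and -0.09 at 4 weeks. Tgm5, an epidermal transglutaminase, had -0.49 ± 0.44 at 8 weeks (edgeR adjusted p = 0.633) and -1.39 ± 0.46 at 4 weeks (0.0860).

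Among the 15 other SOX factors tested, Sox2, a factor of Müller glia and amacrine cells, rose at 8 weeks (44.0 ± 1.63 CPM in JR5558 and 31.3 ± 0.707 CPM in C57BL/6J; log2 fold change 0.49 ± 0.10, edgeR adjusted p = 0.00532). Sox13 rose at 4 weeks (8.93 ± 1.09 CPM in JR5558 and 5.09 ± 0.345 CPM in C57BL/6J; 0.81 ± 0.18, edgeR adjusted p = 0.00766). That is 1 of 15 at each age (6.67%), near the 5.18% of all tested genes at 8 weeks and 6.16% at 4 weeks. Of 11 relatives of Itprid1, the receptor-interacting gene Itpripl2 fell at both ages, to 2.18 ± 0.195 CPM in JR5558 against 5.53 ± 0.126 CPM in C57BL/6J at 8 weeks (-1.34 ± 0.22, edgeR adjusted p = 0.000538) and to 2.69 ± 0.592 CPM in JR5558 against 5.05 ± 0.471 CPM in C57BL/6J at 4 weeks (-0.91 ± 0.21, edgeR adjusted p = 0.0123, and 0.0524 without JR5558 replicate 3). The receptors themselves, Itpr1, Itpr2 and Itpr3, did not pass. On this list 1 of 11 passed at each age (9.09%), against 5.18% of all tested genes at 8 weeks and 6.16% at 4 weeks.

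Of 21 tested partners of securin in anaphase, 1 passed at each age. That is 4.76%, near the 5.18% of all tested genes at 8 weeks and 6.16% at 4 weeks. The 1 was Bub1b, a kinase of the spindle checkpoint that keeps securin from being destroyed too early. Its counts were 403, 440 and 401 in JR5558 and 714, 644 and 591 in C57BL/6J at 8 weeks, and 263, 118 and 119 in JR5558 and 578, 490 and 582 in C57BL/6J at 4 weeks. It fell in JR5558 at 8 weeks (log2 fold change -0.79 ± 0.16, edgeR adjusted p = 0.00477) and at 4 weeks (-1.89 ± 0.17, edgeR adjusted p = 5.08e-07). The strains did not overlap, and the difference between ages did not pass (edgeR adjusted p = 0.118). Espl1, separase itself, had log2 fold changes of -1.13 ± 0.33 at 8 weeks (edgeR adjusted p = 0.0552) and -0.44 ± 0.32 at 4 weeks (0.515), and Pttg1ip, which binds securin, 0.03 and -0.02.

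Several TRIM relatives lie within 500 kb of Trim12a, and of the 10 tested on the list 2 fell at 8 weeks (20%, against 5.18% of all tested genes) and 1 at 4 weeks (10%, against 6.16%). Trim5 had 0 counts in all JR5558 libraries, against 23, 5 and 11 counts in C57BL/6J at 8 weeks and 2, 3 and 13 at 4 weeks. It was at least 14.3-fold lower in JR5558 at 8 weeks (edgeR adjusted p = 0.0131) and at least 6.59-fold lower at 4 weeks (edgeR adjusted p = 0.0545). Leaving out C57BL/6J replicate 1 or any 1 JR5558 replicate ended the 8-week call (highest adjusted p 0.0675). Trim34a had 9, 10 and 2 counts in JR5558 and 29, 19 and 26 in C57BL/6J at 8 weeks, and 10, 4 and 7 in JR5558 and 29, 18 and 22 in C57BL/6J at 4 weeks (log2 fold changes -1.94 ± 0.53 and -1.86 ± 0.53, edgeR adjusted p = 0.0386 and 0.0431). Leaving out any 1 of the 6 libraries compared ended both Trim34a calls (highest adjusted p 0.220), and the replicate block did too (0.0522 and 0.0593). Trim34b, whose name is close to that of Trim34a, had the other direction, with 60 counts over all JR5558 libraries and 8 over all C57BL/6J libraries (log2 fold changes 3.99 ± 1.37 at 8 weeks and 2.24 ± 0.96 at 4 weeks, edgeR adjusted p = 0.112 and 0.206), and did not pass. Trim12c, the closest namesake, had 6.24 ± 0.946 CPM in JR5558 and 4.87 ± 0.336 CPM in C57BL/6J at 8 weeks, and 6.70 ± 1.96 CPM in JR5558 and 4.67 ± 0.829 CPM in C57BL/6J at 4 weeks, and did not pass.

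Genes whose span lay within 500 kb of one of the 8 in the coordinates of the deposited table were then compared between strains. Of 112 tested neighbours, 14 passed at 8 weeks (5 higher and 9 lower in JR5558), which is 12.5% against 5.18% of all tested genes, and 20 passed at 4 weeks (7 higher and 13 lower), 17.9% against 6.16%. The neighbours of Zfp429 made up much of this: 7 of 37 passed at 8 weeks (18.9%) and 12 at 4 weeks (32.4%). The neighbours of the other 7 genes passed in 7 of 75 cases at 8 weeks (9.33%) and in 8 at 4 weeks (10.7%). The count at 4 weeks was 10 without JR5558 replicate 2, 10 without C57BL/6J replicate 3, 13 without JR5558 replicate 3 and 8 with only the compared groups fitted, and at 8 weeks it was 8 or 9 without JR5558 replicate 1, 2 or 3 or C57BL/6J replicate 1 or 2.

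Around Zfp429 lies a cluster of KRAB zinc finger genes. Of its 37 tested neighbours, 3 rose and 4 fell in JR5558 at 8 weeks, and 3 rose and 9 fell at 4 weeks. The list of its relatives is another set, which covers the KRAB clusters of chromosome 13 and Trim28. Of 24 tested genes on that list, 1 rose and 1 fell at 8 weeks (8.33%, near the 5.18% of all tested genes), and 1 rose and 5 fell at 4 weeks (25%, against 6.16%). Zfp457 rose at 8 weeks (3.87 ± 1.05 CPM in JR5558 and 1.42 ± 0.717 CPM in C57BL/6J; log2 fold change 1.45 ± 0.35, edgeR adjusted p = 0.0182) and at 4 weeks (4.62 ± 0.670 CPM in JR5558 and 1.55 ± 0.685 CPM in C57BL/6J; 1.57 ± 0.35, edgeR adjusted p = 0.00838). Zfp738 fell at 8 weeks (17.8 ± 1.26 CPM in JR5558 and 26.4 ± 3.16 CPM in C57BL/6J; -0.57 ± 0.14, edgeR adjusted p = 0.0206) and at 4 weeks (21.0 ± 3.28 CPM in JR5558 and 33.3 ± 5.70 CPM in C57BL/6J; -0.66 ± 0.14, edgeR adjusted p = 0.00565). The 8-week calls ended for Zfp457 without JR5558 replicate 3 or C57BL/6J replicate 1 or 2 (adjusted p up to 0.127) and for Zfp738 without any 1 JR5558 replicate or C57BL/6J replicate 1 or 2 (up to 0.128). Zfp874a fell at 4 weeks (9.06 ± 1.56 CPM in JR5558 and 17.0 ± 2.65 CPM in C57BL/6J; -0.91 ± 0.16, edgeR adjusted p = 0.00122) and had -0.48 ± 0.16 at 8 weeks (edgeR adjusted p = 0.112).

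The largest differences near Zfp429 were in 2 unnamed gene models. The noncoding RNA gene 9430065F17Rik, 153216 bases away, had 0 counts in JR5558, against 18, 16 and 21 counts in C57BL/6J at 8 weeks and 17, 35 and 30 at 4 weeks, at least 20.2-fold and 30.02-fold lower in JR5558 (edgeR adjusted p = 0.000586 and 0.000199). Gm10037, 431287 bases away, had 6, 7 and 4 counts in JR5558 and 109, 57 and 86 in C57BL/6J at 8 weeks, and 16, 6 and 0 in JR5558 and 53, 70 and 78 in C57BL/6J at 4 weeks (log2 fold changes -3.99 ± 0.53 and -3.33 ± 0.51, edgeR adjusted p = 6.085e-05 and 0.000305). Both lay in the same direction as Zfp429.

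**Figure D5:**
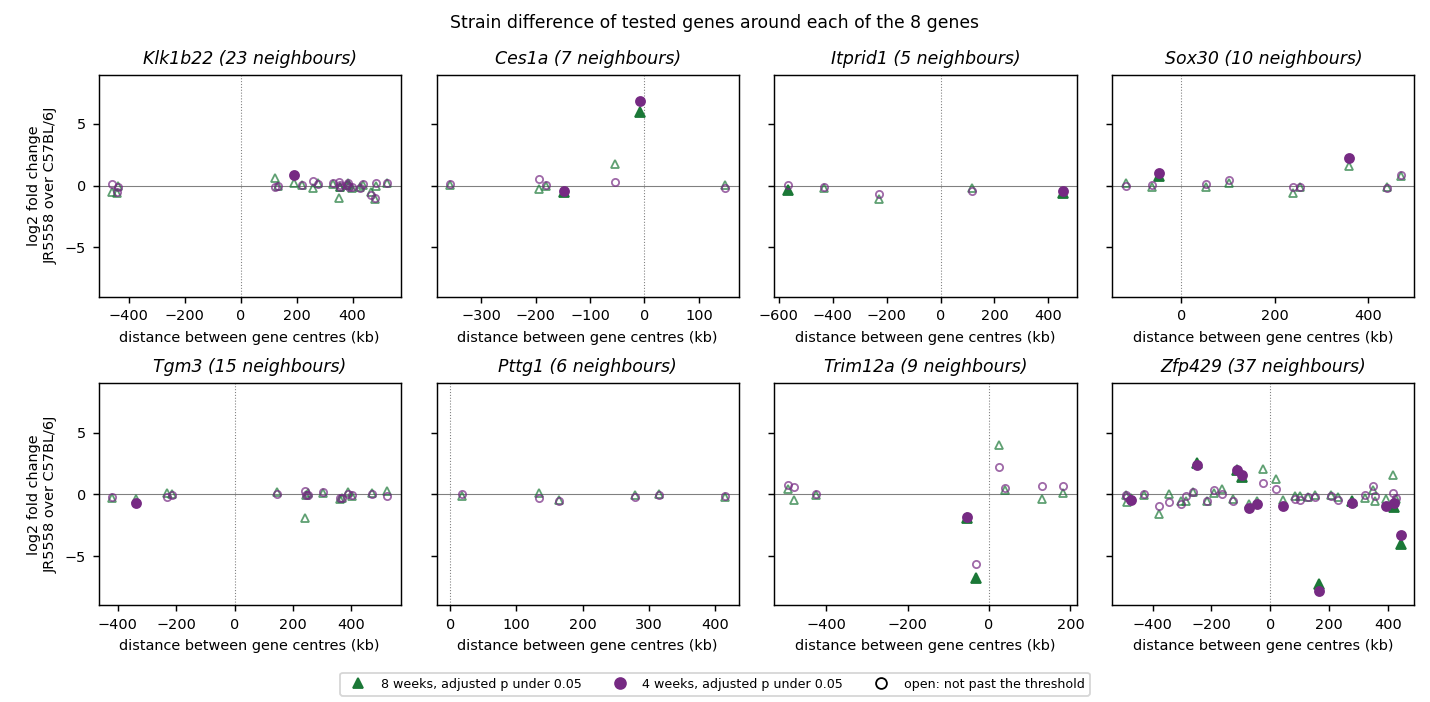
Log2 fold change of JR5558 over C57BL/6J (vertical) of each tested neighbour against the distance between gene centres in kb (horizontal), in 1 panel per gene; triangles are 8 weeks, circles 4 weeks, and filled symbols have an adjusted p under 0.05. The Zfp429 panel holds 12 of the 20 filled circles, and the Pttg1 panel holds none.

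Of the 6 tested neighbours of Pttg1, 0 passed by edgeR at either age, a number too small to set against the 5.18% and 6.16% of all tested genes. Slu7, a splicing factor 7493 bases away, had 9151 counts in JR5558 and 8495 in C57BL/6J. Sox30, 2.55 Mb from Pttg1 on chromosome 11 and of opposite direction, had 1 of 10 neighbours past the threshold at 8 weeks (10%) and 2 at 4 weeks (20%), again of few genes. Thg1l, a tRNA guanylyltransferase gene 24816 bases from Sox30, rose at 8 weeks (19.7 ± 1.72 CPM in JR5558 and 11.7 ± 0.982 CPM in C57BL/6J; log2 fold change 0.75 ± 0.14, edgeR adjusted p = 0.00184) and at 4 weeks (19.6 ± 1.89 CPM in JR5558 and 9.92 ± 1.65 CPM in C57BL/6J; 0.99 ± 0.14, edgeR adjusted p = 0.000122).

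Near Ces1a, 2 of 7 tested neighbours passed at each age (28.6%). Near Itprid1, 2 of 5 passed at 8 weeks (40%) and 1 at 4 weeks (20%). These are too few genes to set against the 5.18% of all tested genes at 8 weeks and 6.16% at 4 weeks. Besides Gm45463, which overlaps Ces1a, the lysophospholipid acyltransferase gene Lpcat2 fell at 8 weeks (32.0 ± 2.53 CPM in JR5558 and 46.3 ± 1.85 CPM in C57BL/6J; log2 fold change -0.53 ± 0.10, edgeR adjusted p = 0.00302) and at 4 weeks (35.03 ± 2.31 CPM in JR5558 and 46.2 ± 6.03 CPM in C57BL/6J; -0.40 ± 0.10, edgeR adjusted p = 0.0219). The 4-week call ended without JR5558 replicate 2 or 3 or C57BL/6J replicate 3 (adjusted p up to 0.0816). Near Itprid1, the phosphodiesterase gene Pde1c fell at 8 weeks (31.7 ± 2.72 CPM in JR5558 and 47.5 ± 5.69 CPM in C57BL/6J; -0.58 ± 0.11, edgeR adjusted p = 0.00215) and at 4 weeks (33.8 ± 4.08 CPM in JR5558 and 46.3 ± 0.714 CPM in C57BL/6J; -0.45 ± 0.11, edgeR adjusted p = 0.0142, and 0.0640 without JR5558 replicate 3). The water channel gene Aqp1 fell at 8 weeks (131 ± 2.32 CPM in JR5558 and 165 ± 1.61 CPM in C57BL/6J; -0.33 ± 0.07, edgeR adjusted p = 0.00383). Lpcat2, Pde1c and Aqp1 changed by less than 2-fold, where Ces1a and Itprid1 themselves were at 0 counts in C57BL/6J. Gm45463 differed far more, with log2 fold changes of 5.98 ± 0.60 at 8 weeks and 6.89 ± 0.67 at 4 weeks.

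Of the tested neighbours at 4 weeks, 1 of 23 passed for Klk1b22 (4.35%) and 1 of 15 for Tgm3 (6.67%). Both shares are near the 6.16% of all tested genes, and 0 passed at 8 weeks. Clec11a, a secreted growth factor gene 185765 bases from Klk1b22, rose (4.90 ± 0.971 CPM in JR5558 and 2.66 ± 0.570 CPM in C57BL/6J; log2 fold change 0.88 ± 0.24, edgeR adjusted p = 0.0315), a call that the replicate block ended (0.0558), as did leaving out JR5558 replicate 2 or 3 or C57BL/6J replicate 2 or 3 (highest adjusted p 0.127). Pdyn, the prodynorphin gene 312505 bases from Tgm3, fell (10.2 ± 1.64 CPM in JR5558 and 16.8 ± 4.09 CPM in C57BL/6J; -0.71 ± 0.16, edgeR adjusted p = 0.00991), and this ended without replicate 1 of either strain (adjusted p up to 0.0549). The 4-week calls of Clec11a, Lpcat2, Pde1c, Pdyn, Itpripl2 and Trim34a also ended with only the compared groups in the fit, at adjusted p between 0.0580 and 0.126.

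Other genes of the table had the same on-off pattern. Gm45463 and 9430065F17Rik, described above as neighbours of Ces1a and Zfp429, were among them. Tnfrsf8, the receptor CD30 of activated lymphocytes, had 0 counts in JR5558, against 273, 199 and 244 in C57BL/6J at 8 weeks and 246, 247 and 243 at 4 weeks. Trim43b, another TRIM gene, had 60, 63 and 55 counts in JR5558 and 4, 0 and 0 in C57BL/6J at 8 weeks, and 45, 17 and 25 in JR5558 and 0 in C57BL/6J at 4 weeks. Just outside the limit, and chosen after their values were seen, Gnat3, the taste transducin subunit, had 465 counts over all JR5558 libraries and 16 over all C57BL/6J libraries, and Ppara, a nuclear receptor of fatty acid oxidation, had 49 in JR5558 and 1340 in C57BL/6J.

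By Pearson correlation of log2 CPM over the 12 libraries, which share the strain split, the most alike gene was Klhl8 for Klk1b22 (r = 0.997), Atp6v0c-ps2 for Sox30 (r = 0.994), Trhde for Tgm3 (r = 0.990) and Ubb-ps for Itprid1 (r = 0.990). For the genes high in C57BL/6J it was Gm15758 for Trim12a (r = 0.997), Miip for Zfp429 (r = 0.989) and Tagap1 for Pttg1 (r = 0.985). Likeness of pattern did not mean likeness of size: Klhl8 had 2091 to 2980 counts in JR5558 and 800 to 968 in C57BL/6J, while Gm15758 had 0 in JR5558 and 17 to 35 in C57BL/6J.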

How the data were processed

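The tools listed per the submitters' processing notes are fastp, HISAT2 (2.0.5) and featureCounts (1.5.0-p3), and the build is mm10, a C57BL/6J genome; whether counting used strand is not given in the sources used here. Per the file headers, the deposited table holds raw counts per gene and library beside FPKM values, and how the authors computed FPKM is not given. Positions of all 8 genes differ between that table and RefSeq GRCm38.p6, so each is given with its source and the 2 were not combined.

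Counts were fitted with edgeR 4.0.16 (R 4.3.3, limma 3.58.1): genes passing filterByExpr (minimum count 10, minimum total 15), TMM scaling, 1 mean per group over 12 libraries, quasi-likelihood tests (2-sided), Benjamini-Hochberg adjustment over 18334 genes, threshold 0.05. CPM uses TMM-scaled totals. Folds against 0 counts are lower bounds at a floor of 3 counts over 3 libraries; ratios have exact 95% binomial intervals, and both cover counting error only. Correlations used log2 CPM with a prior count of 2. The code was tested on simulated data. Alternatives were RLE scaling, other filters, DESeq2 1.42.0, fits of 2 groups, a replicate block and leaving out each library.

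The genes, the family lists and the tests were chosen with earlier results of these data known. Named were the 8 genes, up to 3 called relatives per list and 3 called neighbours per gene by adjusted p, on-off genes with the most counts and the most alike gene of each. Some genes that this rule names are not reported here. Same-numbered libraries did not deviate together (r -0.0859 to 0.0846), so the numbers were not taken as pairs.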

Additional observations from a re-analysis of the deposited data

How the results depend on the processing

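Depth limits the sparse genes most: where Itprid1 or Trim12a is present it had 16 to 49 counts per library, and 0 counts in a strain does not show that no RNA is made. Reads of both strains were set against a C57BL/6J genome. Whether JR5558 reads that differ from it in sequence were missed or counted for a relative was not tested. The number of genes present in JR5558 called for age was 0 in the main fit and 1 (Tgm3) with DESeq2, with no filter on low counts and with only the compared groups fitted, and 0 to 0 when libraries were left out. With only the compared groups, 8 neighbours and 5 relatives passed at 4 weeks, and 12 relatives at 8 weeks. Leaving out 1 library gave 8 to 13 neighbours and 3 to 7 relatives at 8 weeks, and 10 to 17 and 6 to 10 at 4 weeks. The replicate block gave 11 neighbours and 6 relatives at 8 weeks, 15 and 7 at 4 weeks, and 0 genes called for age in either strain; it ended the calls of Clec11a and Trim34a. In the on-off pattern, allowing at most 3 counts in the low strain left 8 genes present in JR5558, at most 30 counts gave 36 (and 22 present in C57BL/6J), and at least 5 counts per library of the high strain gave 26 and 22. Signs turned in 9 fits that left out 1 library, none of them of a called value: the age log2 fold change ran over -0.32 to 0.29 for Itprid1, -0.24 to 0.11 for Sox30 and -0.082 to 0.29 for Zfp429, and the strain value over -0.15 to 0.076 for Sox13 at 8 weeks and -0.011 to 0.17 for Sox2 at 4 weeks. All 32 strain ratios computed from FPKM or unscaled totals moved by less than the spread of the groups. That spread was the ratio times the summed relative SDs of the groups with counts, a wide limit where counts are few. Both scales rest on the same reads, so this check could hardly fail. The causes of these changes were not tested.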
